A study of Mus musculus with 18 samples.

Results

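Biliary epithelial cell libraries of mice with a ligated bile duct held less of 6 transcripts than those of sham-operated mice. The share left ran from 3.28% for Spink4 to 50.3% for Tmem151a. The 6 genes described here are S100g, Spink4, Slc26a3, C2cd4b, Atoh8 and Tmem151a, out of 54532 genes in the table. They were chosen because they stood high in biliary epithelial cells of sham-operated mice and lower in those of ligated mice, so those levels are given as a description with no test. RNA was sequenced from the epithelial cells of the bile ducts (BECs), from primary hepatocytes (MPH) and from Kupffer-like cells (Kupffer), macrophages of the liver by their label, all isolated from mouse liver. Mice had a ligated bile duct (BDL), which stops bile flow, or a sham operation (Sham), and each of the 6 groups of cell type and operation held 3 libraries. The sources used here do not give strain, age, genotype or how long after ligation the cells were taken. They also do not say that libraries are separate mice, so a p-value here covers the spread of the libraries, which may be technical. Stellate cells, which the study also isolated, were not analysed here.

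Biliary epithelial cells secrete and reabsorb ions and water and so change the bile that hepatocytes make. They move chloride and bicarbonate across the membrane that faces the duct and exchange ions through carriers that are better known from the gut. Blocked bile flow is known to make the bile ducts enlarge and multiply, in a reaction that also draws in inflammatory and matrix-producing cells.

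Among the 6 genes, S100g encodes calbindin-D9k, a cytosolic calcium-binding protein of absorptive epithelia known as a target of vitamin D. Spink4 encodes a secreted protein with a Kazal domain, the fold of a family of serine protease inhibitors, and is known from goblet cells of the gut. Slc26a3 encodes a chloride and bicarbonate exchanger of the apical membrane, known from the colon. C2cd4b encodes a nuclear protein with a C2 domain. Atoh8 encodes a basic helix-loop-helix transcription factor that is also expressed in hepatocytes. Tmem151a encodes a transmembrane protein known from the nervous system. On GRCm38, S100g lies at chrX:162961992-162964599 (minus strand), Spink4 at chr4:40920052-40931395 (plus), Slc26a3 at chr12:31390871-31473917 (plus), C2cd4b at chr9:67759437-67760930 (plus), Atoh8 at chr6:72206177-72235577 (minus) and Tmem151a at chr19:5070859-5085531 (minus), all annotated as protein coding in GENCODE M21.

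The promoters are shown because S100g, Slc26a3 and C2cd4b followed each other closely across libraries. RefSeq windows on GRCm38.p6, from 250 bases before to 50 after the start of transcription, were found for 5 of the 6 genes (all but Spink4). Lines give the strand of the gene, 5′ to 3′. Capitals mark TATAAA (the letters of a TATA box) in S100g and Slc26a3, and CAGCTG (an E-box, the element that basic helix-loop-helix factors bind) in C2cd4b. The windows are chrX:162964550-162964849 (minus), chr12:31437969-31438268 (plus) and chr9:67759187-67759486 (plus). The Slc26a3 window surrounds the start that RefSeq gives, which lies inside the GENCODE span above and not at its left end, while the starts of S100g and C2cd4b are the same in both.
S100g: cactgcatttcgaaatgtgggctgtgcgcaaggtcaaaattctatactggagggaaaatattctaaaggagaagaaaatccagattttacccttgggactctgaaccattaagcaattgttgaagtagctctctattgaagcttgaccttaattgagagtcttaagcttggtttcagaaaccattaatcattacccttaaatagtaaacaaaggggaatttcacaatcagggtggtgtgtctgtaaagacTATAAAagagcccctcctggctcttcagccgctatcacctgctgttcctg
Slc26a3: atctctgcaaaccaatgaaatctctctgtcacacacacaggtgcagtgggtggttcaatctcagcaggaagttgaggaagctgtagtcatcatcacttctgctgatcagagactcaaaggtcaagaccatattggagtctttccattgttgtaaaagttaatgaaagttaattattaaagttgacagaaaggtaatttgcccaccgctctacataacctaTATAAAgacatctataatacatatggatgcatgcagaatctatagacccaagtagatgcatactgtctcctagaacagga
C2cd4b: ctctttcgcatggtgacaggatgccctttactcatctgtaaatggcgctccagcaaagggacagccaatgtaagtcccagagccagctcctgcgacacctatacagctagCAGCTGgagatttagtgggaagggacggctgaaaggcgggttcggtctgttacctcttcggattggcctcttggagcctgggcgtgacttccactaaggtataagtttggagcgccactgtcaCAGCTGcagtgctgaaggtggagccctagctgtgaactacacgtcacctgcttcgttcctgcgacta

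Counted from the start of transcription, TATAAA stood at +1 to +6 in S100g and at -30 to -25 in Slc26a3, and the other 3 windows had none. In S100g the match thus lies on the annotated start itself and not upstream of it, where a TATA box is known to stand. Of 32851 windows in the table, 13.62% held it, and among the 7574 windows with at most 45% G and C the share was 31.79%. S100g (41.0% G and C) and Slc26a3 (39.3%) are of that kind, while C2cd4b had 54.7%, Atoh8 66.7% and Tmem151a 77.3%, against a median of 52.7% over all windows. CAGCTG stood at -140 to -135 and -17 to -12 in C2cd4b and at -59 to -54 in Atoh8, against 16.3% of windows. CACCTG, another E-box, was found in S100g, Slc26a3 and C2cd4b and in 20.21% of windows. TGANTCA (the AP-1 site, 7.81% of windows) and ATTGAT (a ONECUT site, 7.54%) were found in none of the 5 windows. Both strands were searched, and the motifs were chosen after the sequences had been read. A match describes letters and is no evidence of binding.

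S100g had 1.48, 4.91 and 1.62 FPKM in the 3 BECs BDL libraries, against 67.5, 95.8 and 36.8 FPKM in the 3 BECs Sham libraries. The lowest Sham library was thus far above the highest BDL library. Group means were 2.67 ± 1.94 FPKM in BECs BDL and 66.7 ± 29.5 FPKM in BECs Sham (SD, n = 3 each), so that 4.00% of the Sham level was left. FPKM counts sequenced fragments per kilobase of a gene's transcript, on the authors' scale of library size, and can be compared between genes because it is divided by length. Recovered reads in genes numbered 15451625 to 20577889 per library. The S100g values rest on 13 to 43 recovered reads per BDL library and on 338 to 1017 per Sham library. Because the libraries are bulk preparations, fewer cells of a kind and less RNA per cell cannot be told apart.

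Spink4 had 2.17, 5.86 and 2.24 FPKM in BECs BDL, against 47.4, 189 and 76.6 FPKM in BECs Sham. It was the most abundant of the 6 genes in BECs Sham, at 104 ± 74.8 FPKM, and averaged 3.43 ± 2.11 FPKM in BECs BDL (SD, n = 3 each), which is 3.28% of the Sham level. Its Sham libraries differed among themselves by up to 3.99 times, with replicate 2 the highest, which is less than the distance to any BDL library.

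Slc26a3 had 0.137, 0.533 and 0.122 FPKM in BECs BDL, against 3.62, 6.13 and 5.40 FPKM in BECs Sham. None of the BDL libraries reached 1 FPKM. The means were 0.264 ± 0.233 FPKM in BECs BDL and 5.05 ± 1.29 FPKM in BECs Sham (SD, n = 3 each), and 5.23% was left. Its long transcript still gave 16 to 62 reads per BDL library and 458 to 864 per Sham library.

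C2cd4b had 1.48, 1.65 and 2.24 FPKM in BECs BDL, against 27.3, 17.3 and 24.4 FPKM in BECs Sham. The means were 1.79 ± 0.396 FPKM in BECs BDL and 23.0 ± 5.12 FPKM in BECs Sham (SD, n = 3 each), and 7.79% was left. The highest replicate was 1.51 times the lowest in BECs BDL and 1.58 times in BECs Sham. C2cd4b shares 627 of its 1327 exon bases with the opposite-strand lincRNA M5C1000I18Rik, and reads from the 2 genes can be told apart only where the counting used strand. The lincRNA itself was listed at 0 in all BECs BDL libraries and averaged 0.0320 FPKM in BECs Sham.

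Atoh8 had 3.48, 2.45 and 3.49 FPKM in BECs BDL, against 20.6, 15.6 and 18.2 FPKM in BECs Sham. The means were 3.14 ± 0.600 FPKM in BECs BDL and 18.2 ± 2.50 FPKM in BECs Sham (SD, n = 3 each), and 17.3% was left. Tmem151a had 3.51, 2.98 and 3.42 FPKM in BECs BDL, against 5.91, 6.76 and 7.01 FPKM in BECs Sham. Its means of 3.30 ± 0.286 FPKM in BECs BDL and 6.56 ± 0.576 FPKM in BECs Sham (SD, n = 3 each) left 50.3% of the Sham level, so Tmem151a was reduced and not lost.

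For all 6 genes the highest BECs BDL library stayed below the lowest BECs Sham library, which is how they were chosen and was the case for 18.8% of the 13573 genes tested in BECs. The log2 fold change of FPKM + 1, BDL minus Sham, was -4.44 for Spink4, -4.22 for S100g, -3.09 for C2cd4b, -2.25 for Slc26a3, -2.21 for Atoh8 and -0.81 for Tmem151a, with a median of -0.03 over all genes tested. The added 1 FPKM understates the change of low genes: for Slc26a3 the value was -3.97 with 0.1 FPKM added. Counted from the strongest fall, Spink4 ranked 4, S100g 6, C2cd4b 21, Slc26a3 78, Atoh8 84 and Tmem151a 808 among the 13573 genes. Replicates did not deviate alike for all genes. S100g, Spink4 and Slc26a3 were each highest in replicate 2 in both groups, while C2cd4b and Atoh8 were lowest in Sham replicate 2.

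**Figure D1:**
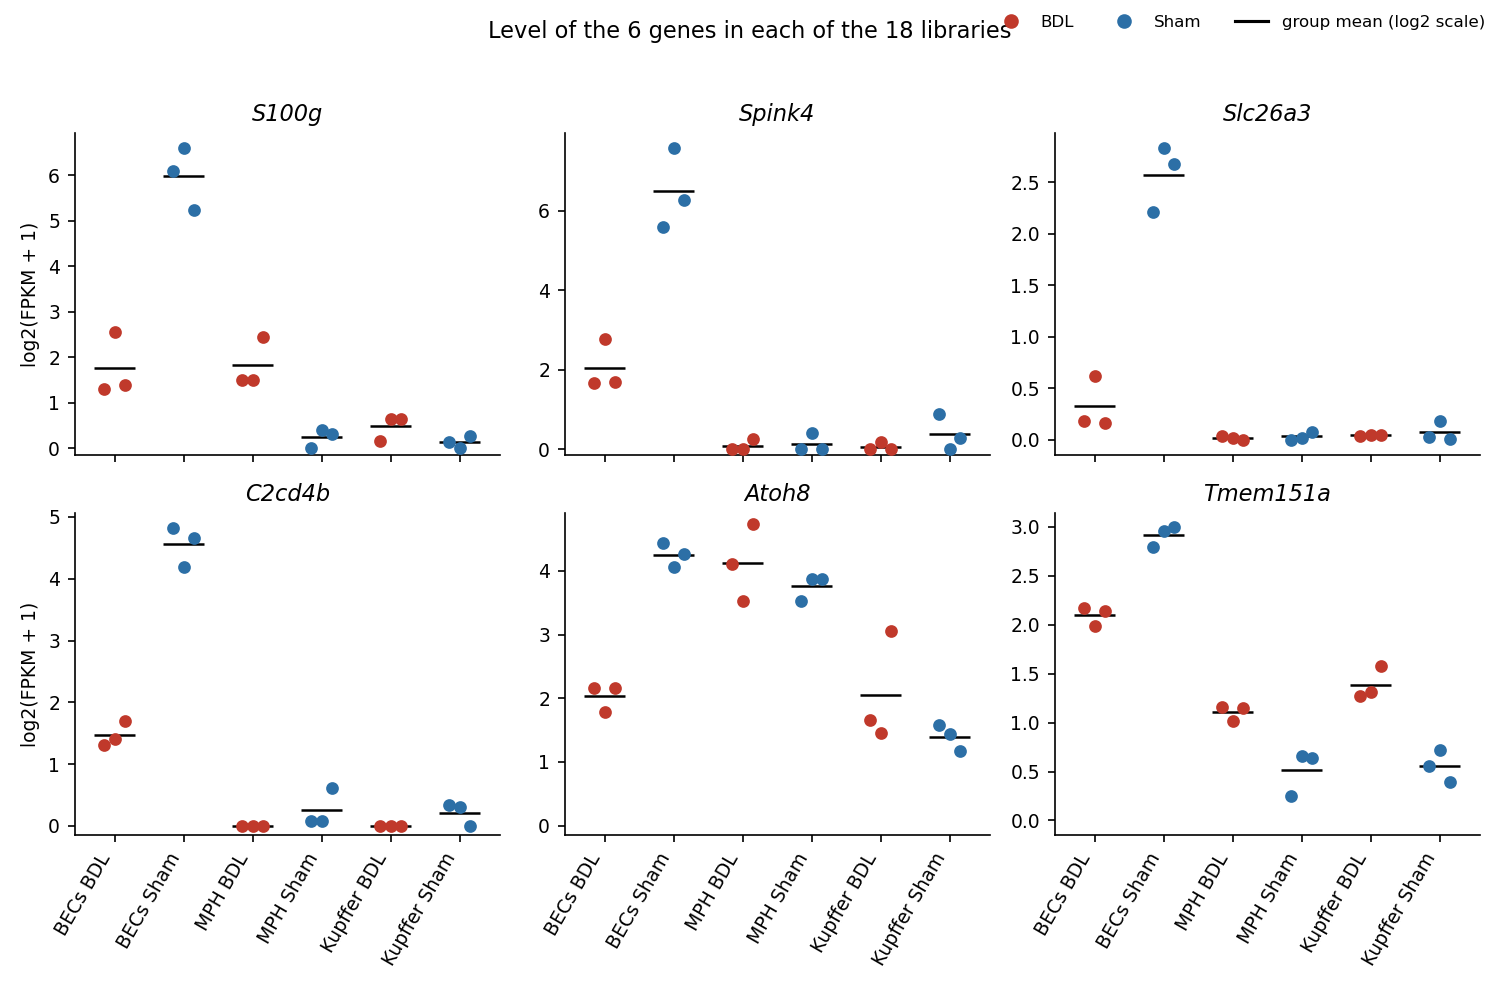
Level of each of the 6 genes as log2(FPKM + 1) (vertical axis, from just below 0 and with its own range in each panel) in the 18 libraries, by group along the horizontal axis. Points are libraries, BDL in red and Sham in blue, and black lines are group means on the log2 scale. All 6 genes are lower in BECs BDL than in BECs Sham, with S100g at 1.48 to 4.91 FPKM against 36.8 to 95.8 FPKM. The Atoh8 FPKM of MPH BDL (10.5 to 25.5) take in those of BECs Sham (15.6 to 20.6), though the deposited scale differs between these cell types.

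**Figure D2:**
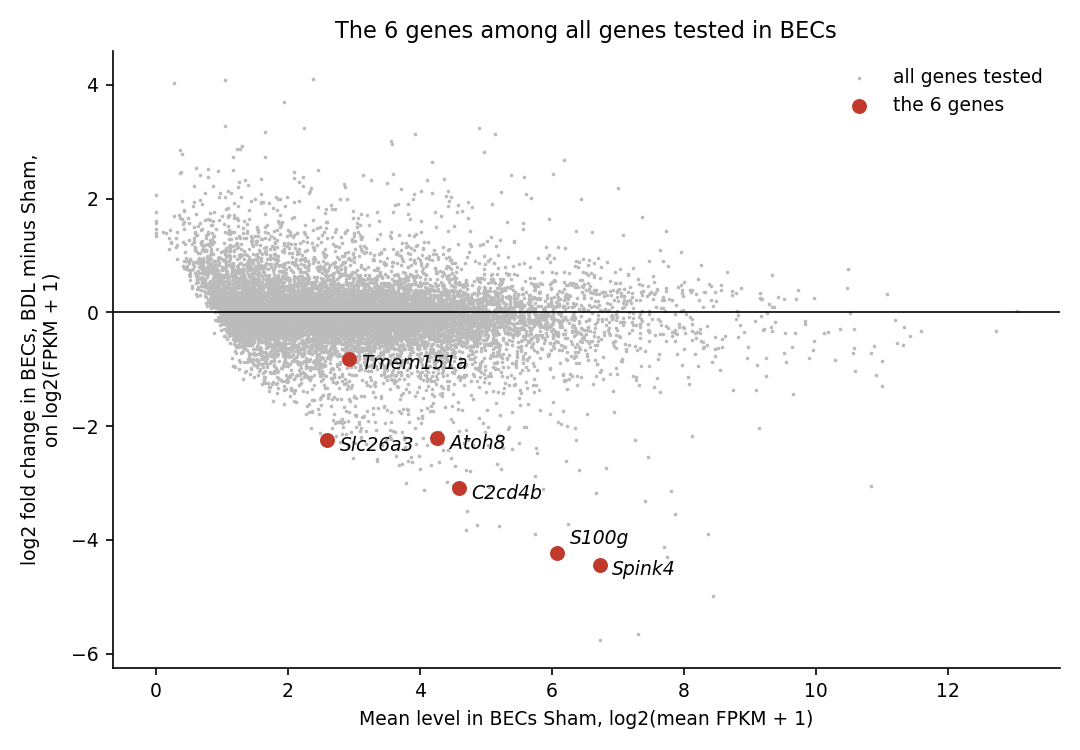
Log2 fold change in BECs, BDL minus Sham on log2(FPKM + 1) (vertical axis), against the mean level in BECs Sham as log2(mean FPKM + 1) (horizontal axis). Grey points are the 13573 genes tested and red points the 6 genes. Spink4 (-4.44) and S100g (-4.22) lie near the lower edge of all genes, and Tmem151a (-0.81) lies close to the main cloud.

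Across the other cell types the 6 genes fell into 2 kinds, those at or near 0 outside BECs and those that were not. The library size behind each column was 0.517 to 0.741 times its recovered reads in MPH. It was 1.08 to 1.18 times in BECs and 0.934 to 1.22 times in Kupffer. A given FPKM thus rests on fewer reads in MPH, and comparisons of FPKM across cell types hold on the deposited scale only. Spink4 had 0, 0 and 0.195 FPKM in MPH BDL, against 0, 0.332 and 0 FPKM in MPH Sham. In Kupffer BDL it had 0, 0.141 and 0 FPKM, against 0.832, 0 and 0.207 FPKM in Kupffer Sham. These are at most 8 reads in a library, and the groups overlap in both cell types. Slc26a3 stayed at or below 0.0545 FPKM in every MPH library and at 0.00776 to 0.137 FPKM in Kupffer, where 1 library, Sham replicate 2, held 17 of its reads and the others at most 4. That library listed 34809 genes above 0, against 19167 to 25600 in the other 17 libraries, and its Slc26a3 level (0.137 FPKM) was above the lowest BECs BDL library (0.122 FPKM).

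C2cd4b had no read in any MPH BDL or Kupffer BDL library. A count of 0 allows up to 3 reads, which is 0.180 to 0.211 FPKM in MPH BDL and 0.121 to 0.152 FPKM in Kupffer BDL, and these floors cover counting error only. In MPH Sham it had 0.0567, 0.0597 and 0.523 FPKM from 1, 1 and 6 reads, and in Kupffer Sham 0.262, 0.232 and 0 FPKM from 7, 6 and 0 reads. At this depth no difference between BDL and Sham could be shown for C2cd4b in MPH or Kupffer, and it did not pass the filter on level there.

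S100g was also seen in the MPH libraries of ligated mice. It had 1.83, 1.85 and 4.47 FPKM in MPH BDL, against 0, 0.330 and 0.241 FPKM in MPH Sham. Every BDL library was above every Sham library, on 11, 11 and 23 reads in BDL and 0, 2 and 1 reads in Sham. The means were 2.71 ± 1.52 FPKM in MPH BDL and 0.190 ± 0.171 FPKM in MPH Sham (SD, n = 3 each). The log2 fold change of FPKM + 1 was 1.58 with a standard error of 0.30 and missed the threshold over all genes (limma, adjusted p = 0.0606). S100g passed the filter in MPH only through its BDL libraries, so a difference was built into its being tested. The adjusted p ran from 0.0508 to 0.161 over 10 other settings, and the log2 fold change was 3.40 with 0.1 FPKM added. In Kupffer, S100g had 0.121, 0.560 and 0.556 FPKM in BDL, against 0.103, 0 and 0.206 FPKM in Sham, on at most 5 reads, with overlapping groups.

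After ligation S100g stood at like FPKM in MPH BDL (2.71 FPKM) and in BECs BDL (2.67 FPKM), with overlapping libraries, on scales that differ between these cell types. In recovered reads it had 11 to 23 per library in MPH BDL and 13 to 43 in BECs BDL. Both stood above Kupffer BDL (0.413 FPKM), which overlapped MPH Sham (0.190 FPKM), which in turn overlapped Kupffer Sham (0.103 FPKM). The summed level of the 14 biliary markers was 662 to 1247 FPKM in MPH BDL and 317 to 457 FPKM in MPH Sham. None of them was at 0 in all libraries of a group. The 11 tested had a median log2 fold change of 0.795, with 4 of them below 0. The 1 called higher was Krt7, a keratin of bile ducts (log2 fold change 1.13, limma adjusted p = 0.0481). Krt7 was not past the threshold without any 1 MPH Sham library and below the filter without any 1 MPH BDL library. It thus passed the filter only through its BDL libraries, so a difference was built into its being tested. The sum of the biliary markers in BECs BDL was 6176 to 7433 FPKM. The MPH BDL library with the most S100g (4.47 FPKM) had the lowest biliary sum of the 3 (662 FPKM) but the highest Krt19 (15.4 FPKM, against 7.47 and 7.48 FPKM in the other two), Krt7 (1.98 FPKM) and Epcam (5.21 FPKM). The part of these markers in the S100g level was not tested. S100g lies within Ctps2, a gene of the opposite strand that encodes a CTP synthase, with no shared exon base. Ctps2 averaged 5.99 FPKM in MPH BDL and 3.03 FPKM in MPH Sham (log2 fold change 0.79, limma adjusted p = 0.110), and 9.11 FPKM in BECs BDL and 10.1 FPKM in BECs Sham.

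Atoh8 was not particular to the BECs libraries. It had 16.3, 10.5 and 25.5 FPKM in MPH BDL, against 10.5, 13.7 and 13.7 FPKM in MPH Sham, and these groups overlap. The log2 fold change in MPH was 0.36 with a standard error of 0.32 (limma, adjusted p = 0.541). In Kupffer, Atoh8 had 2.16, 1.74 and 7.33 FPKM in BDL, against 2.00, 1.72 and 1.24 FPKM in Sham, with 1 BDL library apart from the rest. The log2 fold change there was 0.66 with a standard error of 0.43 (limma, adjusted p = 0.394), and without Kupffer BDL replicate 3 it was 0.16. That library held 3084 FPKM of Kupffer markers, against 18960 and 13430 FPKM in Kupffer BDL replicates 1 and 2. Its neutrophil markers summed to 2459 FPKM, against 934 and 894 FPKM. The part of this in its Atoh8 level was not tested. The mean of Atoh8 was 18.2 FPKM in BECs Sham, 17.4 FPKM in MPH BDL and 12.6 FPKM in MPH Sham. In FPKM, BECs Sham overlapped MPH BDL and MPH BDL overlapped MPH Sham. In recovered reads, BECs Sham (867 to 1027 per library) did not overlap MPH BDL (327 to 687). Both MPH groups lay above BECs BDL (3.14 FPKM), which overlapped Kupffer BDL (3.74 FPKM) and lay above Kupffer Sham (1.65 FPKM).

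Tmem151a had 1.23, 1.02 and 1.22 FPKM in MPH BDL, against 0.188, 0.577 and 0.554 FPKM in MPH Sham. The BDL libraries were all higher (log2 fold change 0.59, standard error 0.19), and the difference missed the threshold (limma, adjusted p = 0.144). Tmem151a passed the filter in MPH and in Kupffer only through its BDL libraries, so a difference was built into its being tested. In Kupffer, Tmem151a had 1.41, 1.48 and 1.99 FPKM in BDL, against 0.475, 0.651 and 0.309 FPKM in Sham. Again every BDL library was above every Sham library, with a log2 fold change of 0.83 (standard error 0.17), and the adjusted p of 0.0546 in limma was just over the threshold. It fell below the threshold in 2 of 10 other settings, at 0.045 without the trend and robust options of limma and 0.0414 with voom on recovered reads, and was at most 0.243 in the others. MPH and Kupffer libraries share 3 numbers in their titles, 1 in BDL and 2 in Sham, so the values of the 2 cell types may not be independent. The level of Tmem151a was thus lower in BECs BDL and higher in value in MPH BDL and Kupffer BDL than in their Sham groups. By mean FPKM the groups ran in the order BECs Sham, BECs BDL, Kupffer BDL, MPH BDL, Kupffer Sham and MPH Sham, and only the last pair of neighbours overlapped. In recovered reads, MPH BDL (61 to 74 per library) met Kupffer Sham (30 to 61). An antisense gene overlaps Tmem151a on the opposite strand with no shared exon base.

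Outside BECs, 3 of the 6 genes passed the filter of at least 1 FPKM in 3 libraries in MPH and 2 in Kupffer. S100g and Tmem151a passed it there only through their BDL libraries, so a difference was built into their passing. None of them passed the test, with 1.57% of genes called in MPH and 3.88% in Kupffer. At an unadjusted p under 0.05 the counts were 2 of 3 in MPH and 1 of 2 in Kupffer, and with voom 0 in MPH and 1 in Kupffer. Over all genes tested, the unadjusted counts were 2791 of 12323 in MPH and 3070 of 12748 in Kupffer. Those with voom were 126 of 12242 in MPH and 566 of 12666 in Kupffer. Groups did not overlap, with BDL higher, for 2 of the 3 in MPH, against 11.8% of genes, and for 1 of the 2 in Kupffer, against 16.7%. With so few genes and such a filter, these shares say nothing about the 6 genes as a set.

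**Figure D3:**
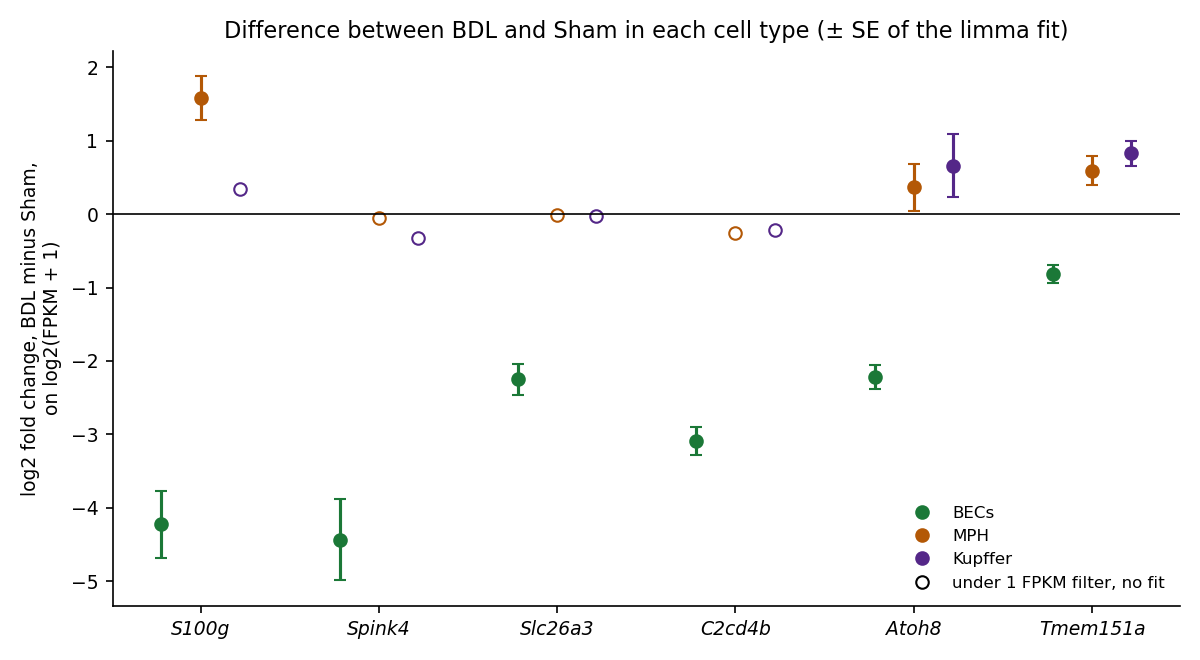
Log2 fold change of FPKM + 1, BDL minus Sham (vertical axis), for each of the 6 genes (horizontal axis) in BECs, MPH and Kupffer. Bars are standard errors of the limma fit over 6 libraries, and open circles are genes below the filter of 1 FPKM in 3 libraries, with no fit. All 6 values in BECs are below 0, from -4.44 to -0.81, while S100g in MPH (1.58) and Tmem151a in MPH (0.59) and Kupffer (0.83) lie above 0.

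Over the 18 libraries, Pearson's r of log2(FPKM + 1) between S100g, Spink4, Slc26a3 and C2cd4b was 0.916 to 0.975. Tmem151a followed these 4 genes at 0.815 to 0.867 and Atoh8 at 0.359 to 0.550. These values describe groups of 3 libraries that differ between cell types. The genes were chosen for a high level in BECs Sham and a lower one in BECs BDL. A high r between those that are low in the other cell types was thus built in. The genes most like the members were found among 9620 genes with a mean of at least 5 FPKM in 1 of the groups. Npr3, which encodes a clearance receptor for natriuretic peptides, was among the 3 most like genes of S100g (0.937), Spink4 (0.957), Slc26a3 (0.936) and C2cd4b (0.964). It averaged 1.30 FPKM in BECs BDL and 6.17 FPKM in BECs Sham, and at most 0.606 FPKM in the other groups. Anxa10, a member of the annexin family of calcium-dependent membrane-binding proteins, came first for Spink4 (0.968) and Slc26a3 (0.951), with 0.820 FPKM in BECs BDL and 5.81 FPKM in BECs Sham. Veph1 came first for C2cd4b (0.975), with 1.39 FPKM in BECs BDL and 5.00 FPKM in BECs Sham.

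Muc3, which encodes a membrane mucin, was among the 3 for S100g (0.917), with 2.09 FPKM in BECs BDL and 22.6 FPKM in BECs Sham. Cyp1a1, a cytochrome P450 induced through the aryl hydrocarbon receptor, was among those for C2cd4b (0.967), with 5.02 FPKM in BECs BDL and 21.5 FPKM in BECs Sham. Atoh8 was most like Prox1 (0.923), a homeobox factor of hepatocytes and lymphatic endothelium, followed by Acsm3 and Anpep (0.899 each). Tmem151a was most like Syngr1 (0.965), a synaptic vesicle protein, Wnt4 (0.960) and Podn (0.958). Syngr1 repeated its order of groups, with 3.59 FPKM in BECs BDL and 6.24 FPKM in BECs Sham, 0.464 FPKM in MPH BDL and 0.185 FPKM in MPH Sham, and 1.18 FPKM in Kupffer BDL and 0.292 FPKM in Kupffer Sham. Because they were chosen by a likeness that includes the BECs libraries, these genes are given here with no test in BECs. Prox1 is also in a list of differentiation factors, whose test in BECs is given further on.

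Few other genes with a biliary pattern were left as low, and since the 6 genes were chosen for this, their ranks are a description. In all, 632 genes had at least 5 FPKM in BECs Sham and at least 5 times their level in MPH Sham and Kupffer Sham. Their median gene kept 76.5% of its Sham level in BECs BDL, and 32 of them (5.06%) kept under 25%. Spink4, S100g, Slc26a3 and C2cd4b ranked 5, 6, 7 and 8 from the lowest share kept, and Tmem151a ranked 121. Atoh8 is outside this set because of its level in MPH Sham.

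The 4 defining biliary transcripts showed that BECs libraries of both groups held biliary RNA. Krt19, a keratin of bile ducts, averaged 378 ± 83.7 FPKM in BECs BDL and 478 ± 102 FPKM in BECs Sham, and Epcam, an epithelial adhesion molecule, averaged 212 ± 33.8 FPKM in BECs BDL and 208 ± 14.6 FPKM in BECs Sham (SD, n = 3 each). Krt7 averaged 32.2 FPKM in BECs BDL and 22.8 FPKM in BECs Sham, and Sox9, a factor of biliary cells, 66.1 FPKM in BECs BDL and 83.0 FPKM in BECs Sham. The summed level of the 14 biliary markers was 6176 to 7433 FPKM in BECs BDL and 7880 to 9519 FPKM in BECs Sham, with no marker at 0.

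Summed markers of hepatocytes and endothelial cells were lower in BECs BDL, as the 6 genes were, while those of neutrophils were higher. The summed level of 15 hepatocyte markers was 217 to 895 FPKM in BECs BDL and 1761 to 4451 FPKM in BECs Sham, with a median log2 fold change of -2.18. All 15 values were below 0, and 2 fell (limma, Ttr -2.18 with adjusted p = 0.0130 and G6pc -2.75 with adjusted p = 0.0261), with 12 at an unadjusted p under 0.05 and 6 called with voom. Over all genes tested in BECs, 3526 of 13573 were at an unadjusted p under 0.05, and voom called 1084 of 13484. The 11 endothelial markers summed to 108 to 137 FPKM in BECs BDL and 204 to 272 FPKM in BECs Sham, and 7 fell, among them Oit3 (-2.32) and Dnase1l3 (-2.23, limma adjusted p = 0.0095 each). The 9 neutrophil markers summed to 320 to 481 FPKM in BECs BDL and 38.4 to 134 FPKM in BECs Sham, and 5 rose, among them Csf3r (2.19, limma adjusted p = 0.00561). Cxcr2, another of the 5, passed the filter only through its BDL libraries, so a difference was built into its being tested. Without BECs Sham 1 the counts were 0 hepatocyte, 2 endothelial and 1 neutrophil markers, and without each library in turn they ran from 0 to 4, 2 to 9 and 1 to 5, with Oit3, Dnase1l3 and Csf3r past the threshold each time. No marker of these 3 lists was at 0 in all libraries of a group. MPH Sham held 66820 to 139100 FPKM of hepatocyte markers and Kupffer Sham 1711 to 2094 FPKM of endothelial markers. The part of these markers in the levels of the 6 genes was not tested.

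Of the other markers in BECs, the 12 for stellate cells summed to 1066 to 1870 FPKM in BECs BDL and 690 to 1141 FPKM in BECs Sham with none passing the test (4 at an unadjusted p under 0.05, 1 with voom). The 12 for Kupffer cells summed to 259 to 781 FPKM in BECs BDL and 242 to 451 FPKM in BECs Sham, with none passing (0 at an unadjusted p under 0.05, 0 with voom). The 8 for monocytes summed to 89.3 to 269 FPKM in BECs BDL and 56.4 to 67.7 FPKM in BECs Sham, and 2 rose (Itgam and F13a1). The 5 mesothelial markers summed to 17.6 to 284 FPKM in BECs BDL and 11.1 to 32.4 FPKM in BECs Sham, and the 9 for T, NK and B cells to 15.6 to 77.6 FPKM in BECs BDL and 16.2 to 26.9 FPKM in BECs Sham, of which Cd3e rose (not past the threshold without any 1 BECs Sham library). Cd3e passed the filter only through its BDL libraries, so a difference was built into its being tested. Because S100g, Spink4 and Slc26a3 are known from the gut, intestinal markers were also summed, at 24.3 to 92.1 FPKM in BECs BDL and 41.3 to 80.7 FPKM in BECs Sham. Of these 8 markers, 2 were high enough to test in BECs, and neither passed. Lgals4 averaged 43.5 FPKM in BECs BDL and 41.8 FPKM in BECs Sham (limma, adjusted p = 0.914), and Vil1 averaged 9.01 FPKM in BECs BDL and 15.8 FPKM in BECs Sham (adjusted p = 0.168). Cdx1, which defines intestinal epithelium, was at 0 in both BECs groups, and Cdx2 was at 0 in all BECs Sham libraries. Beside Tmem151a, mesothelial markers summed to 27.8 to 30.5 FPKM in MPH BDL and 3.83 to 8.90 FPKM in MPH Sham, stellate markers to 182 to 355 FPKM in MPH BDL and 72.2 to 161 FPKM in MPH Sham, and monocyte markers to 112 to 198 FPKM in MPH BDL and 24.9 to 108 FPKM in MPH Sham. In Kupffer, mesothelial markers summed to 27.1 to 64.3 FPKM in Kupffer BDL and 4.15 to 9.69 FPKM in Kupffer Sham, and biliary markers to 244 to 333 FPKM in Kupffer BDL and 108 to 196 FPKM in Kupffer Sham. Hepatocyte markers summed to 1745 to 5857 FPKM in Kupffer BDL and 558 to 1317 FPKM in Kupffer Sham, with all 15 values above 0 and none passing (10 at an unadjusted p under 0.05, 2 with voom). Kupffer markers summed to 3084 to 18960 FPKM in Kupffer BDL and 8243 to 9713 FPKM in Kupffer Sham. The lowest sum was that of BDL replicate 3, which had the most Tmem151a (1.99 FPKM). Stellate markers summed to 164 to 256 FPKM in Kupffer BDL and 47.3 to 113 FPKM in Kupffer Sham. Sums of neutrophil (894 to 2459 FPKM in Kupffer BDL and 330 to 367 FPKM in Kupffer Sham) and monocyte markers (574 to 808 FPKM in Kupffer BDL and 188 to 443 FPKM in Kupffer Sham) were higher in Kupffer BDL as well, and that of endothelial markers was lower (520 to 1334 FPKM in Kupffer BDL and 1711 to 2094 FPKM in Kupffer Sham). The part of these markers in the Tmem151a level was not tested.

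**Figure D4:**
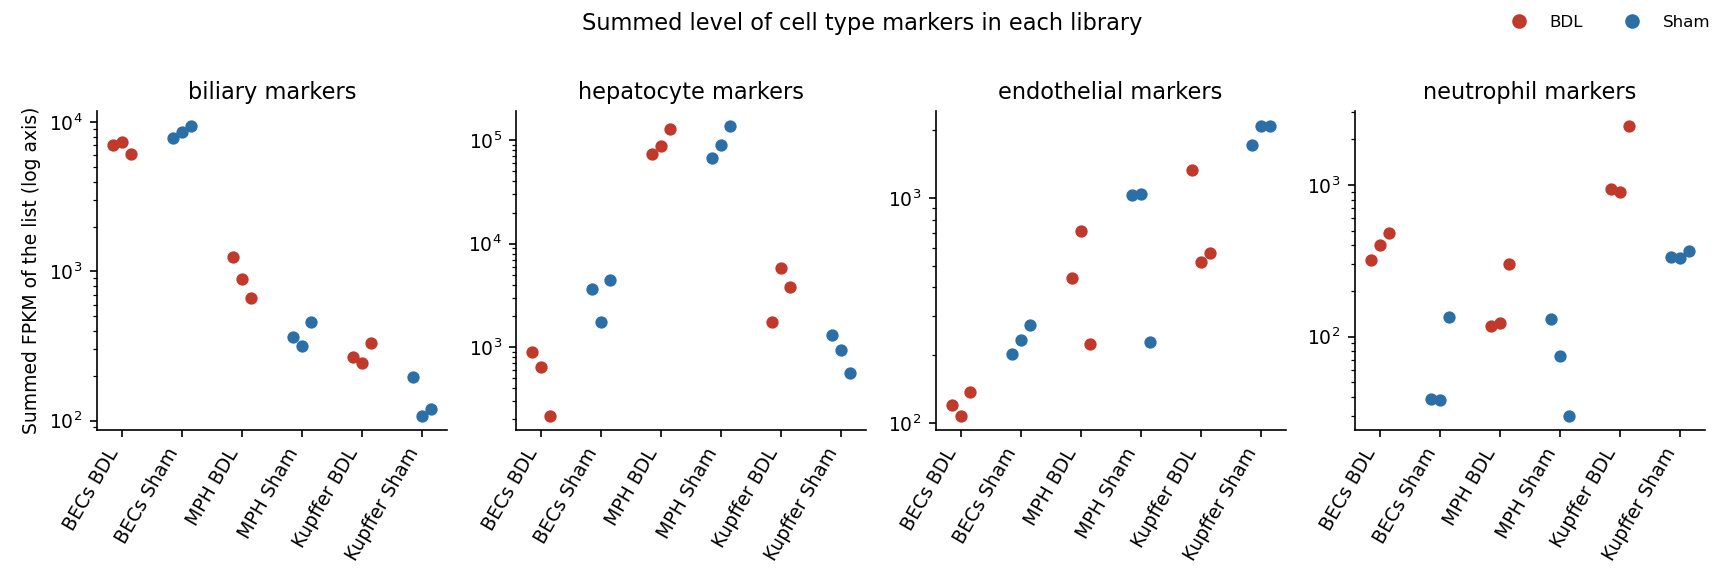
Summed FPKM of the markers of 4 cell types (vertical log axes, each with its own range) in the 18 libraries by group (horizontal axis). Points are libraries, BDL in red and Sham in blue. Biliary markers are highest in both BECs groups (6176 to 9519 FPKM), hepatocyte and endothelial markers are lower in BECs BDL than in BECs Sham, and neutrophil markers are higher.

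In BECs, 7.66% of all genes tested were called, 4.7% lower and 2.96% higher in BDL. Genes related to S100g were not called lower. A list of S100 and calbindin genes, which also holds S100pbp, no member of these families, had 11 tested genes in BECs. None of them fell and 2 rose, S100a8 and S100a9, which encode the subunits of calprotectin, the calcium-binding protein of neutrophils. S100a8 averaged 110 FPKM in BECs BDL and 14.2 FPKM in BECs Sham (3.13, limma adjusted p = 0.0257), and S100a9 averaged 188 FPKM in BECs BDL and 30.2 FPKM in BECs Sham (2.82, adjusted p = 0.0230). Both are also in the neutrophil list above. Among 8 tested genes of calcium transport and vitamin D action, Rxra, the partner of the vitamin D receptor, fell to 11.0 FPKM in BECs BDL, against 20.2 FPKM in BECs Sham (-0.82, limma adjusted p = 0.0234). Rxra was higher in MPH Sham (124 FPKM) and Kupffer Sham (60.2 FPKM). S100a8, S100a9 and Rxra each missed the threshold without BECs Sham 1, Sham 2, BDL 1 or BDL 2, with adjusted p up to 0.0936. Of the 9 genes of the S100 and calbindin list tested in MPH and the 9 in Kupffer, S100a6 rose in both cell types, at 21.3 FPKM in MPH BDL and 6.21 FPKM in MPH Sham, and S100a8 rose in Kupffer. S100a6 missed the threshold without any 1 of the MPH libraries (adjusted p up to 0.209) and in Kupffer both genes were past it only without BDL 3.

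Spink4 stood alone in its family in passing the filter. Of 12 other Kazal inhibitor genes in the table, none reached the filter in any cell type, the highest being Spink1 with a group mean of 3.26 FPKM in BECs. That mean rests on fewer than 3 libraries at 1 FPKM or more, since Spink1 missed the filter. In the wider list of secretory and goblet cell genes, 11 were tested in BECs, with a median log2 fold change of -0.92, 10 of 11 values below 0, and 2 that fell. Pigr, which carries immunoglobulin A into bile, fell to 11.4 ± 6.19 FPKM in BECs BDL, against 206 ± 101 FPKM in BECs Sham (SD, n = 3 each, -4.12, limma adjusted p = 0.0146). Pigr thus fell about as far as S100g and Spink4, but it was also high in MPH, at 189 FPKM in MPH BDL and 339 FPKM in MPH Sham. Creb3l1, a transcription factor of secretory cells, fell to 11.7 FPKM in BECs BDL, against 23.4 FPKM in BECs Sham (-0.91, limma adjusted p = 0.0486). Without BECs Sham 1 the adjusted p of Pigr was 0.0651, and Creb3l1 kept its call only without Sham 1, with adjusted p up to 0.130 without each of the others.

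For Slc26a3, none of 5 tested members of its carrier family passed the test in BECs (2 at an unadjusted p under 0.05, 0 with voom). Slc26a10 averaged 1.49 FPKM in BECs BDL and 2.55 FPKM in BECs Sham, and Slc26a11 4.76 FPKM in BECs BDL and 3.46 FPKM in BECs Sham. Of 13 tested genes of anion, proton and water transport, 2 fell and 1 rose. Aqp1, a water channel, fell to 122 FPKM in BECs BDL, against 265 FPKM in BECs Sham (-1.13, limma adjusted p = 0.0247). Car4, a membrane-bound carbonic anhydrase, fell to 0.825 FPKM in BECs BDL, against 6.71 FPKM in BECs Sham (-2.10, adjusted p = 0.0345). Cftr, the chloride channel that drives secretion into the duct, rose to 10.9 FPKM in BECs BDL, against 4.26 FPKM in BECs Sham (1.14, adjusted p = 0.0398). Aqp1 was higher in Kupffer Sham (760 FPKM) and MPH Sham (302 FPKM) than in BECs Sham, while Car4 and Cftr averaged at most 1.11 FPKM there. Aqp1 missed the threshold without BECs Sham 1, Sham 2, BDL 1 or BDL 2, and Car4 and Cftr also without Sham 3, with adjusted p up to 0.112.

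C2cd4a, C2cd4c and C2cd4d, the relatives of C2cd4b, had group means of at most 0.278 FPKM in BECs and passed no filter. C2cd4a is also the neighbour of C2cd4b on its right, with 0.0639 FPKM in BECs BDL and 0.0969 FPKM in BECs Sham. Tmem151b, the relative of Tmem151a, averaged 0.278 FPKM in BECs BDL and 0.132 FPKM in BECs Sham and was not tested.

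Atoh8 belongs to a large family of transcription factors, of which 9 other members were tested in BECs and none passed (3 at an unadjusted p under 0.05, 1 with voom). Bhlhe41 averaged 1.53 FPKM in BECs BDL and 0.471 FPKM in BECs Sham, and Bhlhe40 161 FPKM in BECs BDL and 105 FPKM in BECs Sham. Atoh8 is known in the liver for its link to bone morphogenetic protein (BMP) signalling, and 4 of 20 tested genes of that pathway fell in BECs, with none rising and a list median of -0.48. The ligand Bmp4 fell to 5.11 FPKM in BECs BDL, against 12.2 FPKM in BECs Sham (-1.10, limma adjusted p = 0.0137), and the ligand Bmp2 fell to 7.41 FPKM in BECs BDL, against 17.2 FPKM in BECs Sham (-1.13, adjusted p = 0.0292). The decoy receptor Bambi (-1.05) and the inhibitory Smad6 (-0.80) fell as well, with adjusted p of 0.0203 and 0.0251. In Kupffer Sham, Bmp2 (202 FPKM) and Smad6 (36.3 FPKM) stood above their BECs Sham levels (17.2 and 19.8 FPKM). Bmp4 (1.09 FPKM) and Bambi (2.68 FPKM) stood below theirs. The part of other cells in these falls was not tested. Without BECs Sham 1 none of these 4 passed (Bmp4 at 0.0651), and 2 genes of the list fell without Sham 2, Sham 3 or BDL 2.

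Among 17 tested factors of epithelial differentiation, 4 fell in BECs and none rose, with a median of -0.43 against -0.03 over all genes. Prox1 fell to 5.82 FPKM in BECs BDL, against 21.3 FPKM in BECs Sham (-1.65, limma adjusted p = 0.0212). Gata4 (-0.97, adjusted p = 0.0265), Foxa1 (-0.995, adjusted p = 0.0266) and Foxa2 (-0.71, adjusted p = 0.0413) also fell. Gata4 was higher in Kupffer Sham (42.6 FPKM) and MPH Sham (19.7 FPKM) than in BECs Sham (13.3 FPKM). Foxa2 was higher in MPH Sham (17.8 FPKM against 13.4 FPKM), while Prox1 and Foxa1 were lower in both. No gene of the list passed without BECs Sham 1, Sham 2 or BDL 1 (Prox1 at up to 0.0693), 1 fell without BDL 2, and Foxa2 missed the threshold without any 1 library (adjusted p up to 0.145). In MPH none of the 15 tested genes of this list passed (5 at an unadjusted p under 0.05, 0 with voom), nor did any of 21 BMP genes (4 and 0).

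**Figure D5:**
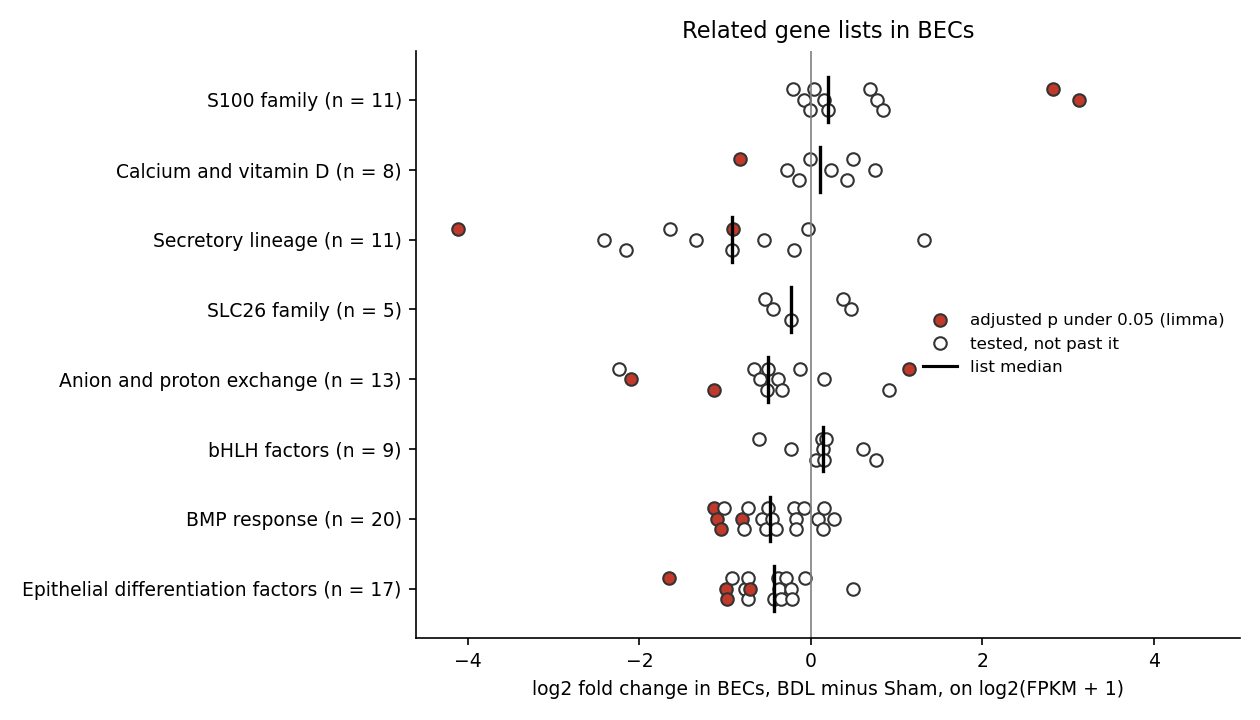
Log2 fold change in BECs, BDL minus Sham on log2(FPKM + 1) (horizontal axis), of the tested genes of 8 related lists (rows). Circles are genes, filled red where the limma adjusted p was under 0.05, and black bars are list medians. The lists of secretory genes and of epithelial differentiation factors have medians of -0.92 and -0.43, and the S100 and bHLH lists lie around 0 with S100a8 (3.13) and S100a9 (2.82) to the right.

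The nearest protein-coding neighbours of the 6 genes were read for whether a wider stretch of the chromosome moved. St3gal5, beside Atoh8, encodes a sialyltransferase and fell to 20.9 FPKM in BECs BDL, against 63.3 FPKM in BECs Sham (-1.58, limma adjusted p = 0.0125, and 0.0616 without BECs Sham 1). It was higher in MPH Sham (94.6 FPKM) and Kupffer Sham (97.7 FPKM). Cd248, beside Tmem151a and a marker of stromal cells, rose to 10.0 FPKM in BECs BDL, against 5.05 FPKM in BECs Sham (0.88, adjusted p = 0.0409, and up to 0.145 without Sham 1, Sham 2, BDL 1 or BDL 2). The other tested neighbours did not pass: Syap1 (-0.27) and Ctps2 (-0.14) at S100g, B4galt1 (0.61) and Bag1 (-0.35) at Spink4, Dld (-0.05) and Cbll1 (0.02) at Slc26a3, Tln2 (-0.04) at C2cd4b and Yif1a (0.07) at Tmem151a. Grpr and Sftpb were too low to test.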

How the data were processed

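Polyadenylated RNA of BECs, MPH and Kupffer-like cells was sequenced, 3 libraries in each of 6 groups, grouped by the cell type and treatment labels. Per the submitters' processing notes, the tools were CASAVA 1.8, fastp, HISAT2 2.0.5, featureCounts 1.5.0-p3 and DESeq2 1.20.0 on GRCm38 (mm10). The sources used here give neither the strand setting nor the annotation release. The authors deposited FPKM values for 54532 genes, from which log2(FPKM + 1) was computed here. With exon lengths of GENCODE M21, 98.1% of 53636 genes gave whole reads in all libraries within 0.02, 15451625 to 20577889 reads per library. The size behind each column was not the read total, so the deposited scale follows another normalization.

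Genes with at least 1 FPKM in at least 3 of the 6 libraries of a cell type entered a limma fit (limma 3.58.1, R 4.3.3, eBayes with trend and robust, 2-sided), and the threshold was a Benjamini-Hochberg adjusted p of 0.05 over all tested genes. The pipeline was tested on simulated data. The simulation gave all genes the same setting of spread and changed no gene near the filter, so it does not cover low or widely spread genes. The other settings were a pseudocount of 0.1, no filter, scaling to a common sum, by median ratio or to recovered reads, eBayes without trend and robust, leaving out each library and, for the 6 genes, values relative to biliary markers. Voom on recovered reads was added after the data were seen. Named genes are the members, the 3 genes most like each, their neighbours, overlapping genes, and per list up to 4 called genes in BECs or the 2 with the smallest p. Spink1 and Cxcr2, and Krt7, S100a6 and S100a8 outside BECs, lie outside this rule and were named after their values were seen. The members and all lists were chosen with earlier results of these data known. A gene of the epithelial differentiation list and a motif are not reported here, and the counts of that list leave the gene out.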

Additional observations from a re-analysis of the deposited data

Results flagged for a closer look

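S100g had values of opposite sign in 2 cell types. Every BDL library was below every Sham library in BECs (log2 fold change of FPKM + 1 of -4.22), as the genes were chosen. In MPH every BDL library was above every Sham library (1.58), on 11 to 23 reads in BDL and 0 to 2 in Sham. Tmem151a did the same, at -0.81 in BECs and 0.59 in MPH. It was also at -0.81 in BECs and 0.83 in Kupffer. The difference between cell types was not tested in these cases, since the BECs values chose the genes. In MPH and Kupffer neither gene was past the threshold (limma, adjusted p = 0.0606 for S100g in MPH, 0.144 and 0.0546 for Tmem151a in MPH and Kupffer). In these cases both genes passed the filter only through their BDL libraries, so a higher BDL value was built into their being tested.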

How the results depend on the processing

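The fall of the 6 genes in BECs kept its direction in every setting, with a median log2 fold change of -2.67, -3.79 with a pseudocount of 0.1, -4.11 with voom on recovered reads and -2.79 to -2.62 without each library in turn. The median was -2.59 relative to biliary markers. Of 72 values of single members in BECs, which have no test, 64 moved by less than the spread of the libraries, 8 moved further from 0 and none reversed. Of 56 values of members in MPH and Kupffer, 54 were the same in direction and side of the threshold and 2 passed it. Of 770 values of other named genes, 615 kept both, 136 missed the threshold, 12 passed it and 7 reversed. The numbers of called genes depended on the setting, and the cause was not tested.

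In BECs, 1040 genes were called (402 higher, 638 lower), 81 with no filter and 86 to 1033 without each library in turn (86 without Sham 1, 357 without Sham 2, 636 without Sham 3, 255 without BDL 1, 407 without BDL 2). The split was 498 higher and 452 lower with a common sum and 523 and 466 with recovered reads. In MPH, 194 were called (88 higher, 106 lower), 117 with a pseudocount of 0.1, 18 with no filter, 109 with a common sum (70 higher, 39 lower), 102 with recovered reads, 126 with voom and 8 to 77 without each library. In Kupffer, 494 were called (188 higher, 306 lower), 323 with a pseudocount of 0.1, 749 with a common sum (115 higher, 634 lower), 682 with recovered reads (144 higher, 538 lower) and 0 with no filter (3254 at an unadjusted p under 0.05). Without each Kupffer library the count was 0 to 2272, with 0 without Sham 1, Sham 2, Sham 3 or BDL 2 (1752 to 2319 at an unadjusted p under 0.05) and 2272 without BDL 3. Scaling moved the median of all genes to -0.239 (common sum) and -0.142 (recovered reads) in Kupffer and to 0.091 (common sum) in MPH. Tmem151a in Kupffer was then at 0.69 and 0.74.

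Signs reversed for Dld at 0.012 with a common sum and 0.0195 with recovered reads, and, without single libraries, for Lgals4 (-0.62 to 0.43, -0.12 with all libraries), Cbll1 (-0.0705 to 0.128) and Tln2 (-0.0672 to 0.0109). No paired analysis was possible because the BDL and Sham libraries of a cell type share no number in their titles. With 3 libraries a group, and under 25 reads of S100g in each MPH BDL library, differences of low genes outside BECs have little precision.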
